A study of Mus musculus with 14 samples.

Results

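The endothelin-converting enzyme family as studied here is 3 genes, Ecel1, Ece1 and Ece2, of the 21568 gene symbols measured in cells of the mouse lateral hypothalamic area. The members were taken by name, but the family was chosen by the measured Ecel1 levels of neurons and their diet differences in an earlier analysis of these counts, so the levels of Ecel1 in neurons and its diet differences there are given as a description, with no test. Single cells from tissue punches were captured with barcoded beads (Drop-seq) and their messenger RNA was counted as unique molecular identifiers (UMIs), near the 3′ end of each transcript. All mice were male wild-type C57BL/6J animals with free access to water and food: 7 mice ate a high fat diet and 7 ate a taste-matched control chow, and every mouse gave 1 library. Sequencing used 2 pools, the first holding 4 high fat diet mice and 4 control mice, the second 3 and 3. Food was the only labelled difference between the groups, and the labels used here give no age and no length of feeding.

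Endothelin-converting enzymes are zinc metallopeptidases of the neprilysin (M13) family that are anchored in the membrane with the catalytic domain outside the cytoplasm. ECE1 and ECE2 cut the inactive precursor big endothelin to the active vasoactive peptide endothelin, which acts on the receptors encoded by Ednra and Ednrb, and both also cut other neuropeptides. ECE1 is best known from blood vessels and works at the cell surface and in endosomes, ECE2 works in acidic compartments of the secretory pathway and is known from neurons, and ECEL1, also called DINE, is a neuronal relative known for its induction after nerve injury in rodents and for its part in the growth of motor axon branches, and it is not known to convert endothelin.

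Ecel1 lies on the minus strand of mouse chromosome 1 (GRCm38, bases 87147655 to 87156521) and overlaps no other annotated gene in GENCODE. Ece1 lies on the plus strand of chromosome 4 (bases 137862237 to 137965229) and overlaps 1 antisense gene, Gm13012, inside its span. Ece2 lies on the plus strand of chromosome 16 (bases 20629828 to 20646485) and overlaps Gm49333, a protein-coding model on the same strand that ends at base 20645920, so Ece2 counts are less certain than those of the other members because the counting rule is not given in the sources used here.

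The stretches in front of the genes are shown because the members differ there as well as in the cells that hold their transcripts. They are the RefSeq windows of 300 bases (GRCm38.p6), from 250 bases before to 50 bases after an annotated start, read 5′ to 3′ on the strand of the gene, with every CG dinucleotide in capitals. The Ecel1 window is chr1:87156307-87156606, the Ece2 window is chr16:20629601-20629900, and the Ece1 window is the most upstream of 4 annotated starts, chr4:137861987-137862286.
Ecel1: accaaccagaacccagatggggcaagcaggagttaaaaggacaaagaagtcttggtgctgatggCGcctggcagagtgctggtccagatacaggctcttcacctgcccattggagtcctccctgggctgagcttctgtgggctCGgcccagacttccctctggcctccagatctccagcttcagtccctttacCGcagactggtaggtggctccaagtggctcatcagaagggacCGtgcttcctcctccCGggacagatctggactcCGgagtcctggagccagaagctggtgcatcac
Ece2: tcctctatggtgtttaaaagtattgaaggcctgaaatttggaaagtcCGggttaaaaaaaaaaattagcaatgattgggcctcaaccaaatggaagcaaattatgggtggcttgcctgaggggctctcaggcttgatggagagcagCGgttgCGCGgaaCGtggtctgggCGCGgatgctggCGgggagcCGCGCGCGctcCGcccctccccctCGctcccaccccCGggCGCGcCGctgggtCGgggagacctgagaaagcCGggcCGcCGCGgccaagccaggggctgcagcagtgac
Ece1: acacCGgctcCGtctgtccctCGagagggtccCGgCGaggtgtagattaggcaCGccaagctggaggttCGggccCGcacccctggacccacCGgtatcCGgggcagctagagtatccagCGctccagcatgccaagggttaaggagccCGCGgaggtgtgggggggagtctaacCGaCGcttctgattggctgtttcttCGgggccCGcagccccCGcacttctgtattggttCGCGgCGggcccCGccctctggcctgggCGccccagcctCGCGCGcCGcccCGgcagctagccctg
The Ecel1 window held 6 CG dinucleotides, against a median of 7 over the 32851 promoter windows of RefSeq, and 52.1% of all windows held more. The Ece2 window held 23, and 20.0% of all windows held more. The Ece1 window shown held 28, and 12.9% of all windows held more, while the most downstream of its 4 starts held 5. A search of both strands found no TATA box (TATAAA) in any of the 6 member windows, against 13.6% of all windows with at least 1. GC boxes (GGGCGG) numbered 2 in the Ece1 window shown, 1 in that of Ece2 and 0 in that of Ecel1, and 35.7% of all windows held at least 1. No member window held the homeodomain core TAATTA, which 5.29% of all windows held. The 3′ counts do not tell from which start an Ece1 transcript came, and these matches describe letters only.

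Of 28410 barcodes, 15378 passed the filters (at least 500 UMIs, at least 300 genes, no more than 20% mitochondrial UMIs), and 15160 were kept after 218 called doublets were removed. The libraries held 147470 to 5611524 UMIs and 49 to 1753 kept cells, with a median of 1338 UMIs per cell over all mice, and 3 barcodes occurred in more than 1 mouse. Classes are clusters that resemble a cell type by its markers: 1972 Slc17a6 neurons (Slc17a6 encodes the vesicular glutamate transporter), 2732 Slc32a1 neurons (Slc32a1 encodes the vesicular GABA transporter), 911 astrocytes and 418 endothelial cells are the main ones. Each carried its own markers: Slc17a6 was seen in 90.2% of Slc17a6 neurons, Slc32a1 in 82.8% of Slc32a1 neurons, and Agt in 92.1% of astrocytes. A mouse entered a class with at least 10 of its cells, which left out high fat diet replicate 7 from all 4 classes and control replicate 6 from astrocytes and endothelial cells. High fat diet replicate 1 stood apart in its neurons, as did control replicates 1 and 2: subclusters led by Ddc and Gfra1 and by Slc17a6 and Bdnf made up 29.4 to 44.2% of the neurons of these 3 mice, against 0 to 4.44% in the other 11, and the diet differences of members are given without them too.

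In the kept cells Ecel1 had 4083 UMIs, Ece1 had 2460 and Ece2 had 2166. Each member had its own distribution over cells. Most Ecel1 UMIs, 79.8%, were in Slc32a1 neurons, and the level differed widely among subclusters of that class. Slc32a1 neurons were 18.0% of the kept cells, with a median of 4234 UMIs per cell against 1338 over all cells. Ece1 was highest in vessel-associated cells and astrocytes and was low in neurons. Ece2 was spread over neurons of every class at nearly the same level and was lower in most glia and in vessels. Levels are UMIs of the gene per 1000000 UMIs of the class (CPM), so they compare classes for 1 gene and not 1 gene with another.

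**Figure D1:**
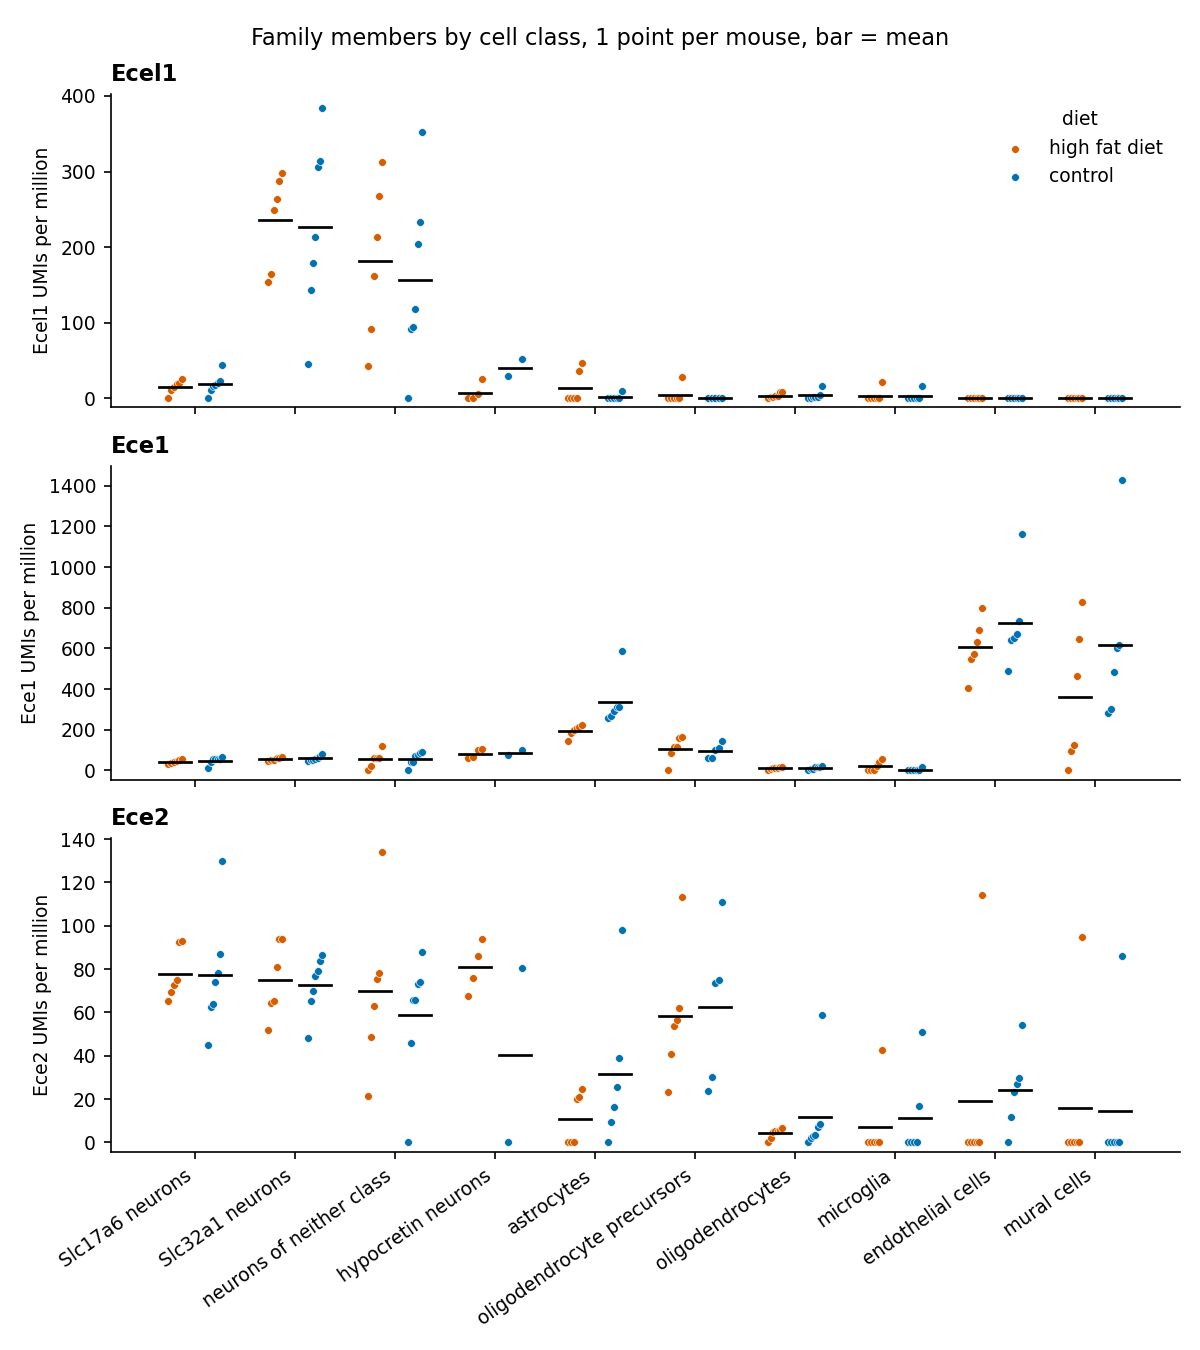
CPM of Ecel1, Ece1 and Ece2 (vertical axes) in 10 cell classes (horizontal axis), with 1 point per mouse with at least 10 cells of the class, high fat diet to the left of control, and a black bar at the mean. Ecel1 stands out in Slc32a1 neurons and in neurons of neither class, Ece1 in endothelial cells, mural cells and astrocytes, and Ece2 in all neuron classes and in oligodendrocyte precursors. Neurons of neither class are subclusters that met no neuron class rule, and the largest of them held UMIs of both Slc17a6 and Slc32a1.

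Ecel1 averaged 17.1 ± 11.1 CPM in Slc17a6 neurons and 231 ± 91.4 CPM in Slc32a1 neurons (SD, n = 13 mice each). The lowest, median and highest mouse had 0, 17.2 and 43.4 CPM in Slc17a6 neurons, and 46.0, 249 and 384 CPM in Slc32a1 neurons. Slc32a1 neurons were above Slc17a6 neurons in all 13 mice. The ranges over mice did not overlap, but they nearly met, at 43.4 and 46.0 CPM. The mouse at 46.0 CPM was control replicate 7, with 14 Slc32a1 neurons. How many of all genes separate these classes in this way was not counted. In the 11 mice with an Ecel1 UMI in both classes, the level in Slc32a1 neurons was 7.04 to 34.05 times that in Slc17a6 neurons. Neurons of neither class averaged 168 ± 107 CPM (n = 13) and hypocretin neurons, which make the arousal peptide orexin, 18.7 ± 20.6 CPM (n = 6), which lies within 1 SD of Slc17a6 neurons. Neurons of neither class were 1263 cells, with a median of 972 UMIs, in subclusters that met no class rule. They were not free of the transporter genes. A Pmch-led subcluster, 58.3% of them, had 404 CPM of Slc32a1 and 317 CPM of Slc17a6. That led by Ddc and Gfra1, 35.9% of them, had 544 CPM of Slc32a1 and 103 CPM of Slc17a6.

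Ecel1 UMIs were seen in 5.38% of Slc17a6 neurons and 39.4% of Slc32a1 neurons, at median depths of 4081 and 4234 UMIs per cell. With every cell thinned to 500 UMIs the shares were 0.950% and 10.3%. In oligodendrocytes, which are not known to make ECEL1, the thinned share was 0.204% (24 of 6138 cells before thinning, median depth 1097 UMIs), and in astrocytes it was 0.191%. No Ecel1 UMI was found in 418 endothelial cells, with a 95% upper limit of 6.90 CPM, or in 261 mural cells. The share in Slc17a6 neurons was thus above that in oligodendrocytes and below that in Slc32a1 neurons. Among Slc32a1 neurons, 201 cells held 5 or more Ecel1 UMIs and the highest held 32. Among Slc17a6 neurons, 4 cells held 5 or more and the highest held 11.

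Within Slc32a1 neurons Ecel1 ran from 13.0 to 557 CPM between subclusters, while the whole class ran from 46.0 to 384 CPM between mice. The subcluster led by Nts, Gal and Cartpt, all genes of neuropeptides, had 557 CPM (95% Poisson interval 531 to 584, 600 cells). It made up 22.0% of Slc32a1 neurons and held 53.1% of their Ecel1 UMIs and 42.4% of all Ecel1 UMIs. In the 11 mice with at least 10 of its cells the level ran from 285 to 753 CPM, with a median of 542. The subcluster led by Sst, Meis2 and Prdm12 had 328 CPM (302 to 356, 362 cells), that led by Pvalb had 272 CPM (216 to 338, 53 cells), and that led by Tac2, Lamp5 and Grp had 226 CPM (195 to 259, 163 cells). At the other end of the same class, the subcluster led by C1ql2 and Tpbg had 13.0 CPM (4.77 to 28.3, 94 cells) and that led by Crhbp 13.6 CPM (1.65 to 49.3, 23 cells), levels found in Slc17a6 neurons. Members were left out of the genes used for clustering, but the subclusters come from the same cells, so these intervals cover counting error only.

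**Figure D2:**
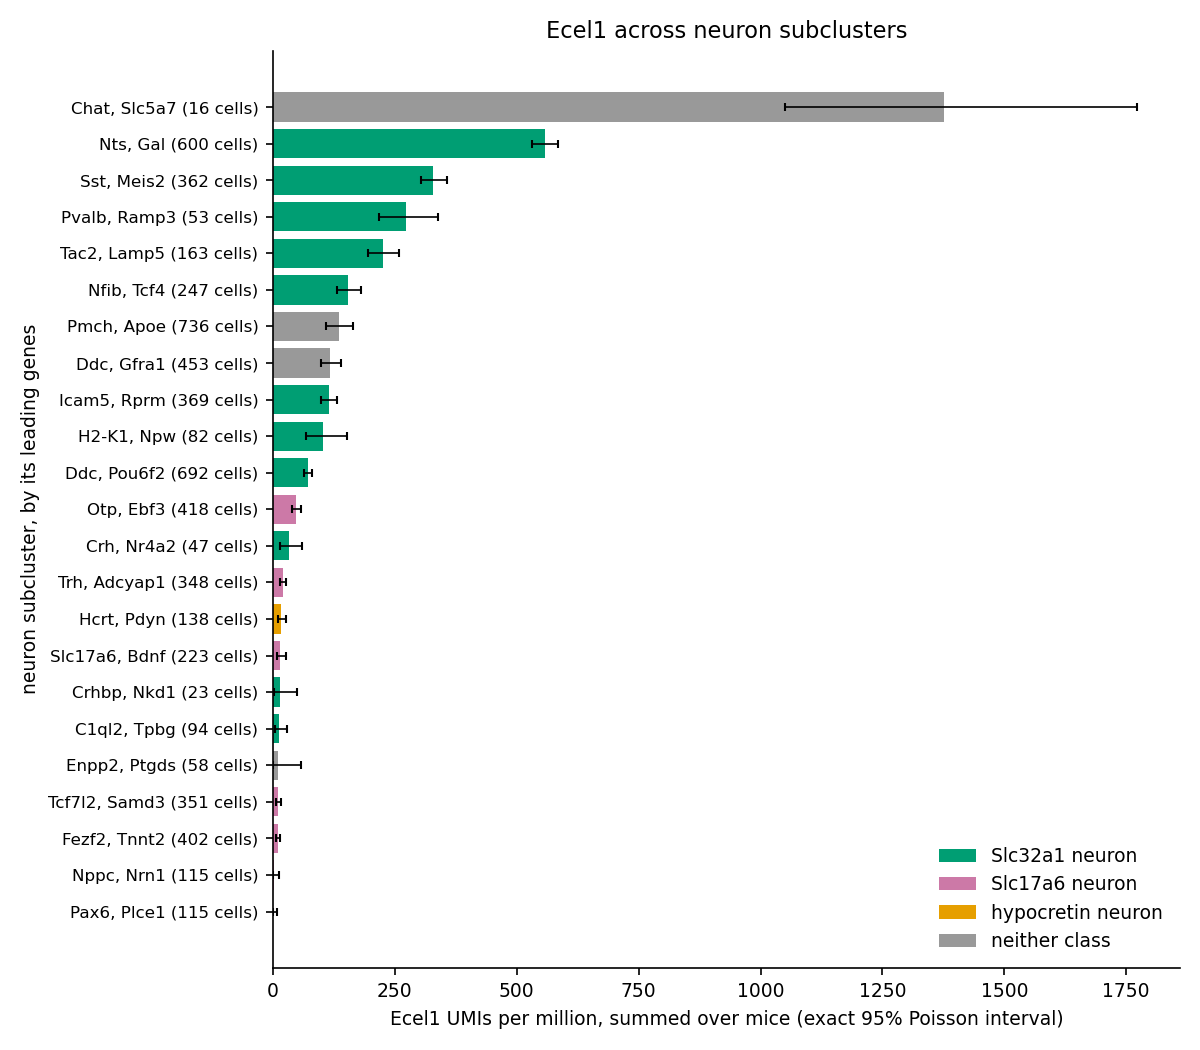
Ecel1 CPM, summed over mice (horizontal axis), in the 23 neuron subclusters, each named by its 2 leading genes with its number of cells; colours give the neuron class and whiskers the exact 95% Poisson interval. The small Chat-led subcluster is highest at 1376 CPM, the Nts-led subcluster follows at 557 CPM, and all Slc17a6 subclusters lie at or below 47.6 CPM.

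The highest level of all was in cholinergic cells. The subcluster led by Chat, which encodes the enzyme that makes acetylcholine, and Slc5a7, the choline transporter, had 1376 CPM (1050 to 1771), with Ecel1 in 87.5% of its 16 cells, which came from 7 mice. A further cluster of 59 cells led by Chat was left without a class and had 1190 CPM (1048 to 1346). A single cell of it held 72 Ecel1 UMIs, the most in any cell. Over both groups together 22 of 75 cells held an Ecel1 UMI. Among the 42 cells with UMIs of both Chat and Slc5a7, whatever their cluster, 15 held Ecel1 UMIs, and these cells came from 5 of the 11 mice with such cells. This selection by Chat and Slc5a7 was chosen after the values were seen. The numbers per mouse, 0 to 12 such cells, allow no comparison of diets.

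Slc17a6 neurons also differed among themselves. The subcluster led by Otp and Ebf3 had 47.6 CPM of Ecel1 (38.9 to 57.6, 418 cells) and held 53.8% of the Ecel1 UMIs of the class with 21.2% of its cells. The Trh-led subcluster had 20.5 CPM (14.96 to 27.4, 348 cells). The subcluster led by Nppc and Nrn1 had 1 UMI and that led by Pax6 and Plce1 had 0 UMIs, each in 115 cells, the second with an upper limit of 7.22 CPM.

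Over the 20 subclusters with at least 50 cells, the genes whose pattern was most like that of Ecel1, by Pearson correlation of log2(CPM + 10) among 6851 genes, were Isl1 (0.80), Dlx6 (0.78), Dlx1 (0.78), Stard4 (0.74) and Asic2 (0.72). Isl1, Dlx1 and Dlx6 encode homeodomain transcription factors. The subclusters share libraries, and some of these genes took part in the clustering.

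Ece1 had another pattern. It averaged 46.0 ± 14.2 CPM in Slc17a6 neurons and 57.8 ± 10.0 CPM in Slc32a1 neurons (n = 13 each), against 267 ± 114 CPM in astrocytes and 667 ± 190 CPM in endothelial cells (n = 12 each). The lowest mouse had 406 CPM in endothelial cells, and the highest had 67.3 CPM in Slc17a6 neurons and 80.1 CPM in Slc32a1 neurons, so the ranges did not overlap. The share of all genes that separate endothelial cells from neurons in this way was not counted. Mural cells averaged 489 ± 388 CPM (n = 12), which overlaps endothelial cells and astrocytes. Mural cells were 2 clusters: the one led by Kcnj8, Art3 and Atp13a5, genes of pericytes, had 871 CPM (720 to 1043, 149 cells), and the one led by Acta2, Tagln and Myh11, genes of smooth muscle, had 81.6 CPM (37.3 to 155, 112 cells). Fibroblasts, 42 cells in all, had 54 UMIs, or 1284 CPM (965 to 1676). After thinning, Ece1 was seen in 30.7% of endothelial cells, 21.5% of mural cells and 12.0% of astrocytes, against 2.44% of Slc17a6 neurons, 2.88% of Slc32a1 neurons and 0.620% of oligodendrocytes.

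Ece1 and Ece2 both differed along the oligodendrocyte lineage. Oligodendrocyte precursors averaged 101 ± 48.9 CPM of Ece1 and 60.3 ± 31.4 CPM of Ece2 (n = 11 mice), and oligodendrocytes 11.6 ± 5.76 CPM of Ece1 and 8.02 ± 14.9 CPM of Ece2 (n = 14). The mean of Ece2 in oligodendrocytes rests on 1 mouse at 58.9 CPM, and the level summed over mice was 4.56 CPM (3.19 to 6.31), against 69.2 CPM (51.3 to 91.2) in precursors. Newly formed oligodendrocytes, 32 cells, had 5 Ece1 UMIs and 3 Ece2 UMIs, too few to place them.

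Ece2 was level across neurons. It averaged 77.6 ± 20.4 CPM in Slc17a6 neurons and 73.8 ± 14.6 CPM in Slc32a1 neurons (n = 13 each), a gap smaller than the SD over mice, with 64.0 ± 32.3 CPM in neurons of neither class (n = 13) and 67.4 ± 34.2 CPM in hypocretin neurons (n = 6). Over the 23 subclusters it ran from 30.9 to 123 CPM, while Ecel1 ran from 0 to 1376 CPM. Astrocytes averaged 21.2 ± 27.3 CPM and endothelial cells 21.7 ± 33.9 CPM of Ece2 (n = 12 each), from 14 and 13 UMIs. The thinned share was 3.92% in Slc17a6 neurons and 3.80% in Slc32a1 neurons, against 0.205% in oligodendrocytes. The genes most like Ece2 over the 20 subclusters were Usp13 (0.91), Rnf170 (0.87), Pelo (0.87), 3010026O09Rik (0.87) and Tmem43 (0.86), and those most like Ece1 over 9 cell classes, among 8046 genes, were Tgfb2 (0.96), Rab13 (0.95), Fry (0.94), Trp53inp2 (0.94) and Arntl (0.94).

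The genes of endothelin itself were found beside Ece1, not beside Ecel1. Edn1, the gene of endothelin 1, had 916 CPM in endothelial cells (837 to 1001), 61.3 CPM in mural cells and at most 0.423 CPM in the Slc17a6 and Slc32a1 neuron classes. Edn3 had 324 CPM in endothelial cells and 1950 CPM in fibroblasts, and Edn2 had 0 UMIs in both. Ednrb, the endothelin B receptor, had 2504 CPM in astrocytes (2388 to 2624) and 1032 CPM in oligodendrocyte precursors (959 to 1109), against 2.75 CPM in Slc17a6 neurons and 1.76 CPM in Slc32a1 neurons. Ednra, the endothelin A receptor, was highest in mural cells at 119 CPM (79.4 to 170). Among the other M13 peptidases, Mme, which encodes neprilysin, had 14.6 CPM in Slc17a6 neurons and 17.7 CPM in Slc32a1 neurons, against 0 UMIs in astrocytes and in hypocretin neurons.

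**Figure D3:**
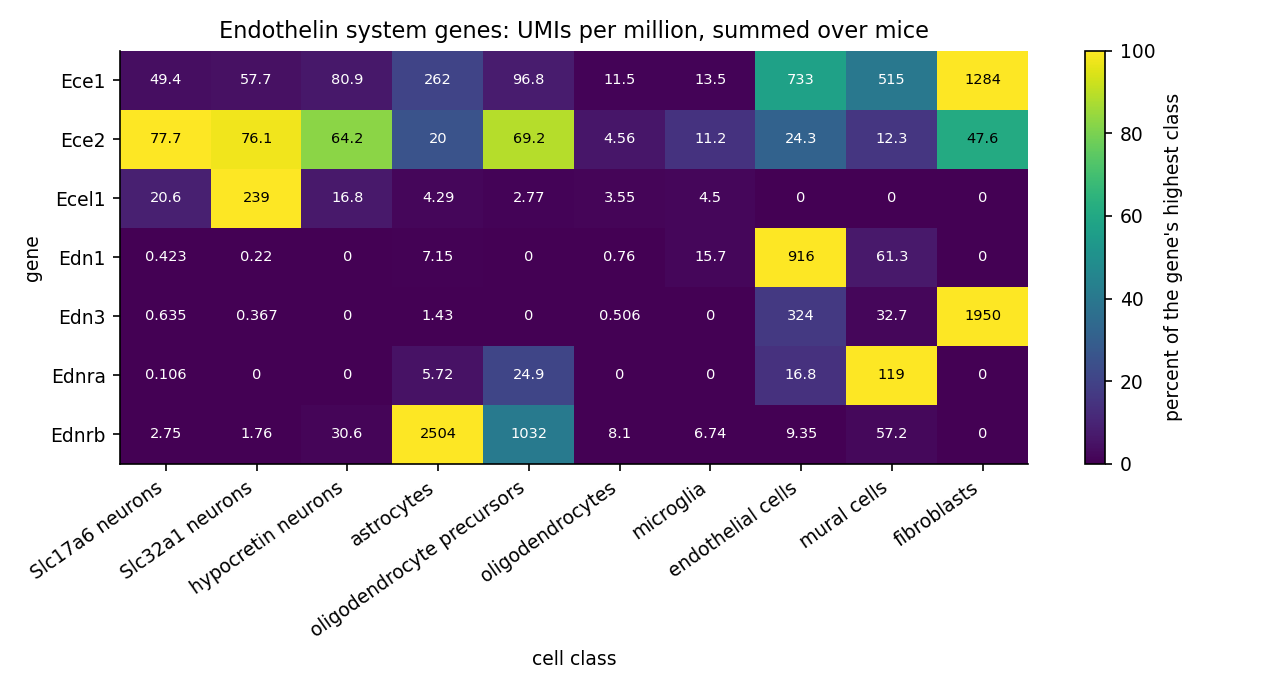
CPM, summed over mice, of the 3 enzymes, the ligand genes Edn1 and Edn3 and the receptor genes Ednra and Ednrb (rows) in 10 cell classes (columns); the number in each field is the level and the colour its percent of the highest class of that gene. Edn1 peaks in endothelial cells at 916 CPM, Ednra in mural cells at 119 CPM, Ednrb in astrocytes at 2504 CPM, and, of the classes shown, Ecel1 in Slc32a1 neurons at 239 CPM.

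The diet comparison asks whether the members differed between mice on the high fat diet and mice on control chow within a class. UMIs were summed per mouse and class and tested with the quasi-likelihood F test of edgeR with sequencing pool as a covariate, with Benjamini-Hochberg adjustment over all genes tested. At an adjusted p under 0.05, 0 of 8714 genes passed in Slc17a6 neurons (0%), 2 of 8164 in Slc32a1 neurons (0.0245%), 0 of 674 in astrocytes (0%) and 0 of 660 in endothelial cells (0%), and neither Ece1 nor Ece2 was among those that passed. At an unadjusted p under 0.05 the numbers were 133, 168, 24 and 31 genes, and DESeq2 called 0, 2, 0 and 0. The 2 genes that passed in Slc32a1 neurons, Grp and Rpph1, are no members; both were higher on the high fat diet, with log2 fold changes of 2.07 (SE 0.33, edgeR adjusted p = 0.0248) and 1.11 (SE 0.19, edgeR adjusted p = 0.0306). Ecel1 and Ece2 were too low in astrocytes and endothelial cells to enter the test.

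Ece1 had the largest diet difference among the tested members. In astrocytes the lowest, median and highest mouse had 147, 204 and 223 CPM on the high fat diet (n = 6), against 256, 302 and 589 CPM on control chow (n = 6). All 6 high fat diet mice were below all 6 control mice. Of the 674 genes tested in astrocytes, 1 (0.148%) lay wholly below in this way, and it was Ece1. This share covers 1 direction only, that of Ece1, and the share wholly above is not given. Whether 1 such gene among 674 exceeds chance was not tested. The Ece1 means were 196 ± 27.2 CPM on the high fat diet and 337 ± 125 CPM on control chow (SD). The log2 fold change was -0.62 (SE 0.27) and did not pass the test across all genes (edgeR, unadjusted p = 0.0245, adjusted p = 0.944). Over all astrocytes of the 7 mice of a diet there were 61 Ece1 UMIs on the high fat diet and 122 on control chow. These are raw counts, not scaled for the number of astrocytes, which was larger on control chow. The mice with fewer than 10 astrocytes did not follow the separation: high fat diet replicate 7 had 366 CPM from 3 UMIs and control replicate 6 had 113 CPM from 1 UMI.

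The difference in astrocytes was -0.73 (SE 0.41) in pool 1 alone and -0.60 (SE 0.36) in pool 2 alone, and -0.69 (SE 0.31) without the 3 mice that stood apart. Endothelial markers summed to 36.6 to 278 CPM in astrocytes on the high fat diet (median 122) and 49.0 to 123 CPM on control chow (median 81.2), with 3 of the 8 markers at 0 UMIs. Neuron markers summed to 606 to 1899 CPM on the high fat diet (median 800) and 343 to 1196 CPM on control chow (median 520). The part of either set of markers in the result was not tested. Ednrb, the receptor gene of the same cells, averaged 2332 ± 147 CPM on the high fat diet and 2639 ± 271 CPM on control chow (n = 6 each), with a log2 fold change of -0.18 (edgeR adjusted p = 0.999).

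**Figure D4:**
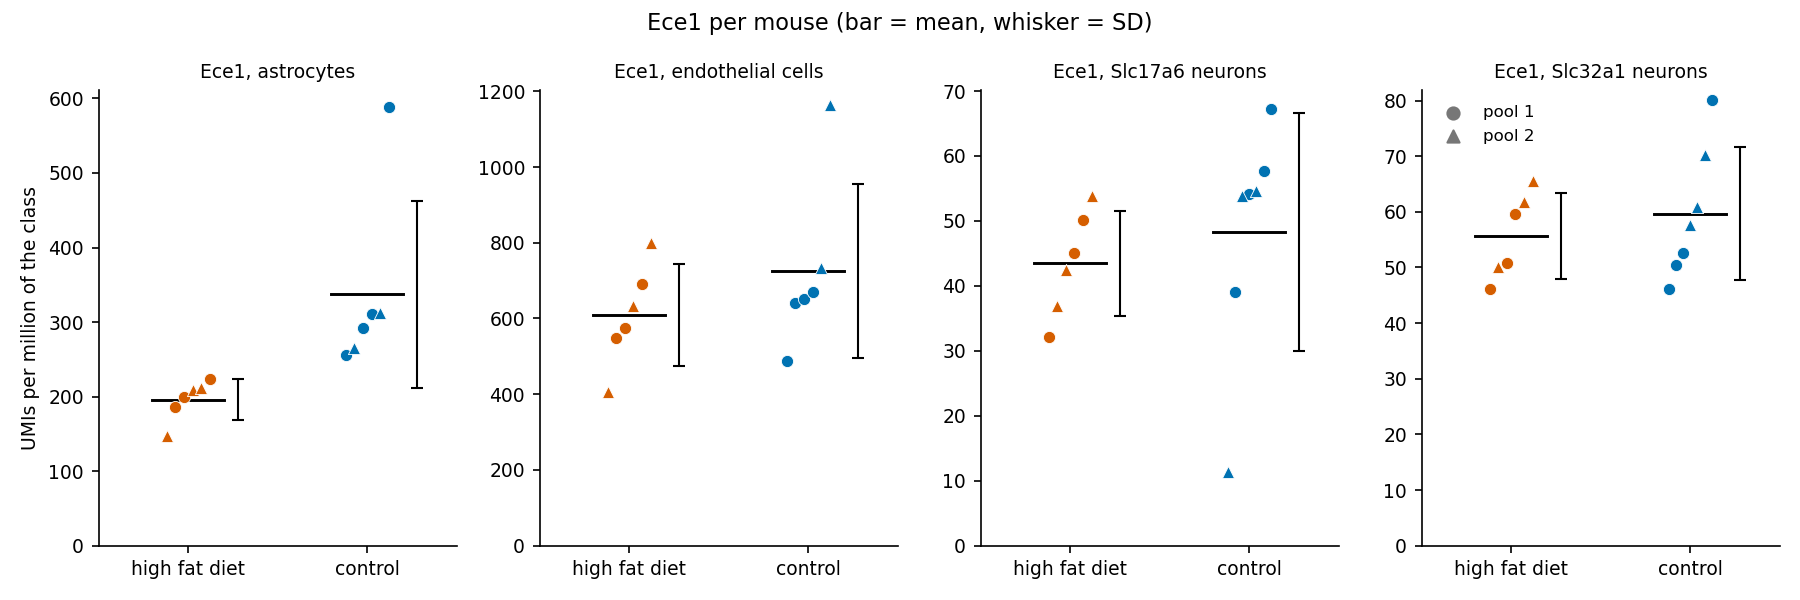
Ece1 CPM in astrocytes, endothelial cells, Slc17a6 neurons and Slc32a1 neurons (panels), with 1 point per mouse, high fat diet left and control right, circles for pool 1 and triangles for pool 2, a bar at the mean and a whisker of 1 SD. The diets separate in astrocytes, where the high fat diet mice end at 223 CPM and the control mice start at 256 CPM, and they overlap in the other panels.

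In endothelial cells Ece1 had a lowest, median and highest value of 406, 604 and 801 CPM on the high fat diet, against 488, 660 and 1164 CPM on control chow (n = 6 each). These ranges overlapped. Of the 660 genes tested, 0.152% lay wholly below, and Ece1 was not one of them. The means were 609 ± 134 CPM on the high fat diet and 725 ± 230 CPM on control chow, or -0.35 on the log2 scale (SE 0.23, adjusted p = 0.930 by edgeR). Without control replicate 4, the mouse at 1164 CPM, it was -0.17, and it was -0.07 in pool 1 alone, -0.70 in pool 2 alone and -0.48 without the 3 mice that stood apart. Mural markers summed to 1528 to 6702 CPM in endothelial cells on the high fat diet (median 4838) and 2970 to 8201 CPM on control chow (median 5795), with 0 of 8 at 0 UMIs, and their part in the result was not tested.

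In neurons Ece1 and Ece2 differed little. Ece1 had a log2 fold change of -0.23 (SE 0.21) in Slc17a6 neurons and -0.11 (SE 0.15) in Slc32a1 neurons, and Ece2 had 0.07 (SE 0.18) and 0.05 (SE 0.16) in the same classes, none of which passed (edgeR adjusted p of 0.999 or more). Without the 3 mice that stood apart, Ece1 had -0.32 in Slc17a6 neurons and -0.08 in Slc32a1 neurons, and Ece2 had -0.09 and -0.01. Genes that lay wholly below on the high fat diet were 0.023% of those tested in Slc17a6 neurons and 0.0122% in Slc32a1 neurons, with neither Ece1 nor Ece2 among them. Ece1 was thus lower in sign on the high fat diet in all 4 classes, but the classes share their mice and no difference passed. The diet effects of Slc17a6 and Slc32a1 neurons did not differ detectably for either gene: the difference, Slc17a6 minus Slc32a1, was -0.14 (SE 0.20) for Ece1 and -0.04 (SE 0.16) for Ece2 on the log2 scale, and -0.20 and -0.10 without the 3 mice that stood apart. In that comparison 0 of 9064 genes passed (0%) with edgeR and 0 with DESeq2, with 352 genes at an unadjusted p under 0.05.

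Ecel1, given here without a test, was nearly equal between diets in the class that holds most of it. In Slc32a1 neurons the lowest, median and highest mouse had 154, 256 and 298 CPM on the high fat diet (n = 6), against 46.0, 214 and 384 CPM on control chow (n = 7). The high fat diet mice lay inside the range of the control mice, but few cells set both ends of that range. Control replicate 7, with 14 Slc32a1 neurons, was the lowest and had no cell of the Nts-led subcluster. Control replicate 6, with 28 Slc32a1 neurons, was the highest. The means were 236 ± 62.1 CPM on the high fat diet and 227 ± 116 CPM on control chow, with a log2 fold change of 0.12 (SE 0.31), which was 0.62 in pool 1 alone, -0.41 in pool 2 alone, -0.02 without control replicate 7 and 0.12 without the 3 mice that stood apart. The Nts-led subcluster made up 15.1 to 33.0% of Slc32a1 neurons on the high fat diet and 0 to 41.9% on control chow, and without its cells the class averaged 146 ± 48.1 CPM on the high fat diet and 127 ± 79.5 CPM on control chow.

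In Slc17a6 neurons the lowest, median and highest mouse had 0, 16.9 and 25.3 CPM on the high fat diet (n = 6), against 0, 17.2 and 43.4 CPM on control chow (n = 7). The groups overlapped over most of their range, and the highest mouse was control replicate 5. The log2 fold change was -0.52 (SE 0.36), from 88 UMIs on the high fat diet and 107 on control chow. These are raw counts, not scaled for the number of Slc17a6 neurons, which was larger on the high fat diet. It was -0.08 without control replicate 5, 0.15 in pool 1 alone, -1.29 in pool 2 alone and -0.82 without the 3 mice that stood apart. The difference between the diet effects of the classes, Slc17a6 minus Slc32a1 with the mouse as a block, was -0.71 (SE 0.24), and it was -0.50 without control replicate 5, -0.39 in pool 1 alone, -1.12 in pool 2 alone and -0.94 without the 3 mice that stood apart.

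Markers of the Slc32a1 class were also seen in Slc17a6 neurons. Summed over 7 markers, they reached 214 to 397 CPM on the high fat diet (median 368) and 181 to 1140 CPM on control chow (median 564) in Slc17a6 neurons, with 0 of the 7 at 0 UMIs, and their part in the Ecel1 difference was not tested. The Otp-led subcluster, the one with most Ecel1 in the class, made up 7.98 to 29.1% of Slc17a6 neurons on the high fat diet and 0 to 49.2% on control chow. Without its cells Ecel1 averaged 9.13 ± 8.80 CPM on the high fat diet and 10.1 ± 9.44 CPM on control chow.

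**Figure D5:**
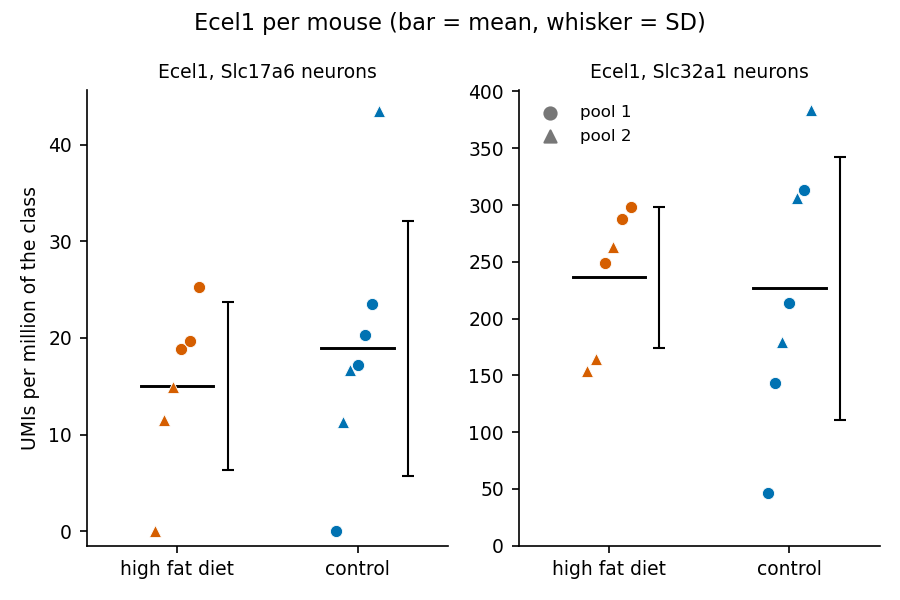
Ecel1 CPM in Slc17a6 neurons (left panel) and Slc32a1 neurons (right panel, another scale), with 1 point per mouse, high fat diet left and control right, circles for pool 1 and triangles for pool 2, a bar at the mean and a whisker of 1 SD. The diets overlap in both panels, and control replicate 5 is the highest point of the left panel at 43.4 CPM.

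No member of the related gene lists passed the diet test in any of the 4 classes. Endothelin ligands had 2 of 3 genes tested in endothelial cells, with log2 fold changes of -0.09 (SE 0.31) for Edn1 and 0.58 (SE 0.31) for Edn3 and a median of 0.24, against -0.01 over all genes tested there. Edn3 averaged 404 ± 173 CPM on the high fat diet and 263 ± 119 CPM on control chow (n = 6 each; edgeR adjusted p = 0.930). Of 12 precursors of peptides that these enzymes or neprilysin can cut, 9 were tested in Slc17a6 neurons, 4 of them positive, with a median of -0.02, and 7 in Slc32a1 neurons, 3 positive, with a median of -0.01, against 0.00 and -0.00 over all genes tested. Of 8 genes known from nerve injury, among which Atf3 and Jun encode transcription factors, 5 were tested in Slc17a6 neurons with a median of -0.05, 4 in Slc32a1 neurons with a median of 0.04 and 3 in endothelial cells with a median of -0.23. Atf3 in endothelial cells had the largest difference of any listed gene within 1 of the 4 classes, at -1.22 on the log2 scale (SE 0.36, adjusted p = 0.880 by edgeR).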

How the data were processed

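The authors deposited, for each of 14 mice, a table of raw UMI counts of genes by cell barcodes, whole numbers with no normalization. The upstream tools, named without roles in the submitters' processing notes, were STAR 2.4.2a, Picard 2.2.4 and bcl2fastq 2.18.0.12, on build mm10 (GRCm38); how UMIs were counted, on which annotation and for which barcodes, is not given in the sources used here. Members and lists were chosen with earlier results of these data known, and genes were named as the members, the list genes, the 5 genes most like each member and the genes leading clusters. Doublets were called with Scrublet in scanpy 1.11.5 (expected rate 5%, mice with at least 300 cells). Cells were clustered on 2000 variable genes without the members, Edn1, Edn2, Edn3, Ednra and Ednrb. Clustering used 30 components, 15 neighbours and leidenalg 0.10.2 (resolution 2, neurons 1). A broad class, such as neurons or astrocytes, needed 3 markers raised 1.5 times and seen in 10% of cells. Clusters that also carried strong markers of another broad class could stay unnamed. A class of neurons needed 3 markers seen in 10% of cells, with no fold rule. Slc17a6 and Slc32a1 subclusters differed at least 3 times in these genes. Class sums per mouse went into edgeR 4.0.16 under R 4.3.3 (quasi-likelihood, TMM, robust, filterByExpr, Benjamini-Hochberg), with DESeq2 1.42.0 as an alternative. On simulated sums the edgeR test found 45.3% of 2-fold changes in Slc32a1 neurons and 34.7% in Slc17a6 neurons. It found 100% of 4-fold changes in both, with 4 and 2 false calls. Many 2-fold changes would thus be missed. Astrocytes, endothelial cells and the comparison between the classes were not simulated. The genes tested held 97.1 to 98.0% of UMIs in both neuron classes and 46.6 to 55.2% in astrocytes and endothelial cells. Shares of cells were also computed after thinning to 500 UMIs; intervals cover counting error only, and a count of 0 allows up to 3 counts. The mouse was the replicate. Positions come from GENCODE M21 and promoter windows from RefSeq, and all 3 symbols matched.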

Additional observations from a re-analysis of the deposited data

Results flagged for a closer look

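Of 19 groups of mice examined by member, class and diet, 2 held a mouse far from the others, and chance flags about 1 in 20 groups. Control replicate 7 had 589 CPM of Ece1 in astrocytes, from 12 UMIs in 15 cells, while the next control mouse had 312 CPM; without it the log2 diet difference was -0.52. Control replicate 4 had 1164 CPM of Ece1 in endothelial cells, from 118 UMIs in 76 cells, while the next had 733 CPM.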

How the results depend on the processing

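No paired analysis was possible because the replicate numbers follow accession order and pair no mice. Of 67 diet differences of Ece1 and Ece2 recomputed under other settings, 61 kept their sign, as did 96 of 102 with 1 mouse left out; none passed the test, and the lowest adjusted p was 0.558. Of 26 such values of Ecel1, 24 kept their sign, as did 38 of 39 with 1 mouse left out: the exceptions were Slc17a6 neurons in pool 1 alone (0.15) and Slc32a1 neurons in pool 2 alone (-0.41) and without control replicate 7 (-0.02). Ece2 changed sign in Slc17a6 neurons with at least 1000 UMIs per cell (-0.000939), in pool 2 alone (-0.14) and without the 3 mice that stood apart (-0.0864), in Slc32a1 neurons in pool 2 alone (-0.14) and without those 3 mice (-0.0131), and between the classes when each neuron was gated by its own Slc17a6 and Slc32a1 UMIs (0.0251). With 1 mouse left out, Ece2 ran from -0.0196 to 0.118 in Slc32a1 neurons and from -0.0814 to 0.0151 between the classes, and Ece1 from -0.244 to 0.0263 between the classes. Ecel1 in Slc17a6 neurons moved to -1.29 in pool 2 alone, and its mean level in endothelial cells to 10.2 CPM with doublets kept. The genes called in Slc32a1 neurons numbered 1 with the gate, 0 with doublets kept, 1 with at least 1000 UMIs, 0 in pool 1 alone, 0 in pool 2 alone, 0 without the 3 mice, and 0 to 2 with 1 mouse left out. In astrocytes 1 was called in pool 2 alone. In endothelial cells 2 were called with no filter on low counts, 1 with doublets kept, and 0 to 1 with 1 mouse left out. Between the classes 1 was called with no filter, 1 with the gate, 2 with at least 1000 UMIs, and 0 to 1 with 1 mouse left out. The cause was not tested in any of these. The gate was not run in astrocytes or endothelial cells, the fit without a pool term was not run between the classes, and the diet fit was not run in astrocytes with at least 1000 UMIs, where too few mice remained. Depth limits Ece1 in astrocytes, where a mouse had 4 to 40 UMIs, and Ecel1 in Slc17a6 neurons, where a mouse had 0 to 46.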
